A study of Mus musculus with 9 samples.

Results

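The genes described here build, anchor to, or remodel the extracellular matrix: collagen chains, laminins, nidogens, integrins, cadherins, metalloproteases and protease inhibitors. They were chosen by symbol alone, as every spotted clone whose gene symbol begins with Col and a digit, Lama, Lamb, Lamc, Itga, Itgb, Mmp, Adam, Plod, P4ha, Fbln, Cdh, Serpin, Timp, Sparc, Nid or Bgn, leaving out Col3a1, Col6a1, Col6a2 and Timp3; the prefixes Thbs, Lox, Fbn, Cyr61, Hspg2 and Lum were also searched. The rule took 81 genes on 110 clones, out of 7643 genes with a symbol on 11140 clones. Where several clones carried a gene, its brightest clone (by mean log intensity over the arrays) stood for it.

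RNA was compared on 9 spotted mouse cDNA arrays that each held a pair of samples, one in Cy3 and the other in Cy5. Growing C2C12 myoblasts (MB, a mouse muscle precursor line kept in growth medium) were set against the same line held for 48 h in suspension in semi-solid medium, where the cells stop dividing in G0 (G0 MB, 3 arrays), and against myotubes formed from it in low-serum differentiation medium (MT, 2 arrays). G0 MB were also set against MT (2 arrays) and against fibroblasts arrested in suspension (G0 FB, 2 arrays), which the labels name as NIH 3T3 cells and the study's methods as C3H10T1/2 cells. All muscle samples came from a single cell line, so they hold no spread between animals, and no group carried a transgene or a deletion. The source name of the G0 MB sample on 1 of the G0 FB arrays begins with NIH 3T3 although its cell line is given as C2C12, and the treatment entry of every array speaks of replating, so the labels are not free of contradiction. In extracts of whole cultures, fewer cells of a type and less RNA per cell cannot be told apart.

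Muscle precursors sit beneath a basement membrane, a sheet of laminin and type IV collagen networks that nidogens tie together, and they hold on to it and to fibronectin through integrins, heterodimers of an alpha and a beta chain. Cadherins join cell to cell, and a myoblast uses them when it fuses. Metalloproteases of the Mmp, Adam and Adamts families cut matrix and cell-surface proteins, and Timps and many serpins inhibit proteases.

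Depth on an array is set by how many spots are brighter than background. Each array held 31200 spots and between 5952 and 9872 clones were above the detection limit of at least 1 channel. Of the 81 genes, 12 were above it on no array (among them Itgb4, Lama3, Mmp7 and Col12a1), 13 on 1 array and 24 on all 9 arrays. By role, 14 were collagen chains, 7 basement membrane glycoproteins, 9 integrins, 6 cadherins, 18 metalloproteases and 16 protease inhibitors. Of the metalloproteases 4 were never above the limit and 2 were above it on all 9 arrays, and of the collagen chains 4 and 5. Altogether 43 genes had enough arrays to be tested in at least 1 comparison, 29 of them in all 4. The counts below are therefore of genes that were bright enough in at least 1 sample of a pair.

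The sign of a ratio depends on which dye held which sample, and here that was settled only for G0 MB over MB. Ratios were turned first by the dyes in the labels (the labelled direction) and then by the order of samples in each array's title, which is the order the authors' own table of ratios follows (the title direction). The readings are the same for G0 MB over MB, opposite in sign wherever MT or G0 FB was set against G0 MB, and differ for 1 of the 2 MT over MB arrays. Under the labelled dyes the MT over MB arrays correlated at r = -0.486 over clones, the G0 MB over MT arrays at 0.0204 and the G0 MB over G0 FB arrays at 0.214. Both MT over MB arrays have MT as Cy5 in the labels whereas the study's methods describe a dye reversal. For these 3 comparisons both directions are given, since the labels and methods do not settle them and a sample's identity was not taken from its measured values. Of the G0 MB over MB arrays, replicates 1 and 2 correlated at 0.68, and replicate 3 at 0.202 and 0.204 with them. Replicates 1 and 2 alone had a layout of their own, and replicate 3 had that of the arrays of the other comparisons. In mean log intensity replicate 3 correlated at 0.56 and 0.57 with replicates 1 and 2, and at 0.67 to 0.75 with the other arrays. Within this comparison layout and replicate 3 cannot be told apart.

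Between G0 MB and MB, the largest differences among the 38 genes tested lay in protease inhibitors and a metalloprotease. Timp2, Serpine2 and Adamts1 were higher in G0 MB on every array, and Nid1 and Sparc were too. Itgb4bp, Cdh3 and Itga3 had log2 ratios below 0 on every array. On replicate 3, however, their G0 MB channel was under its limit of 5554, which was above their MB signal. For Cdh3 the same held on replicate 1 with a limit of 6877, so those arrays alone do not show a lower level. A gene was called at a limma adjusted p under 0.04 together with a difference past 1.6-fold (a log2 ratio of 0.67). No member met this under the labelled direction, where 0.484% of all 3928 genes tested did, and 2 members, Serpine2 and Timp2, met it under the title direction, where 2.75% of all genes did; the ratios are the same, and only the pooled spread differs, through the MT over MB arrays. By limma, 5 members were higher and 3 lower at an unadjusted p under 0.05. Counting by size alone, 10 members (26.3% of those tested) were past 1.6-fold higher, against 17.4% of all genes, and 5 (13.2%) were lower, against 26.7% of all genes. The median log2 ratio of the members was 0.21 and that of all genes -0.15.

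**Figure D1:**
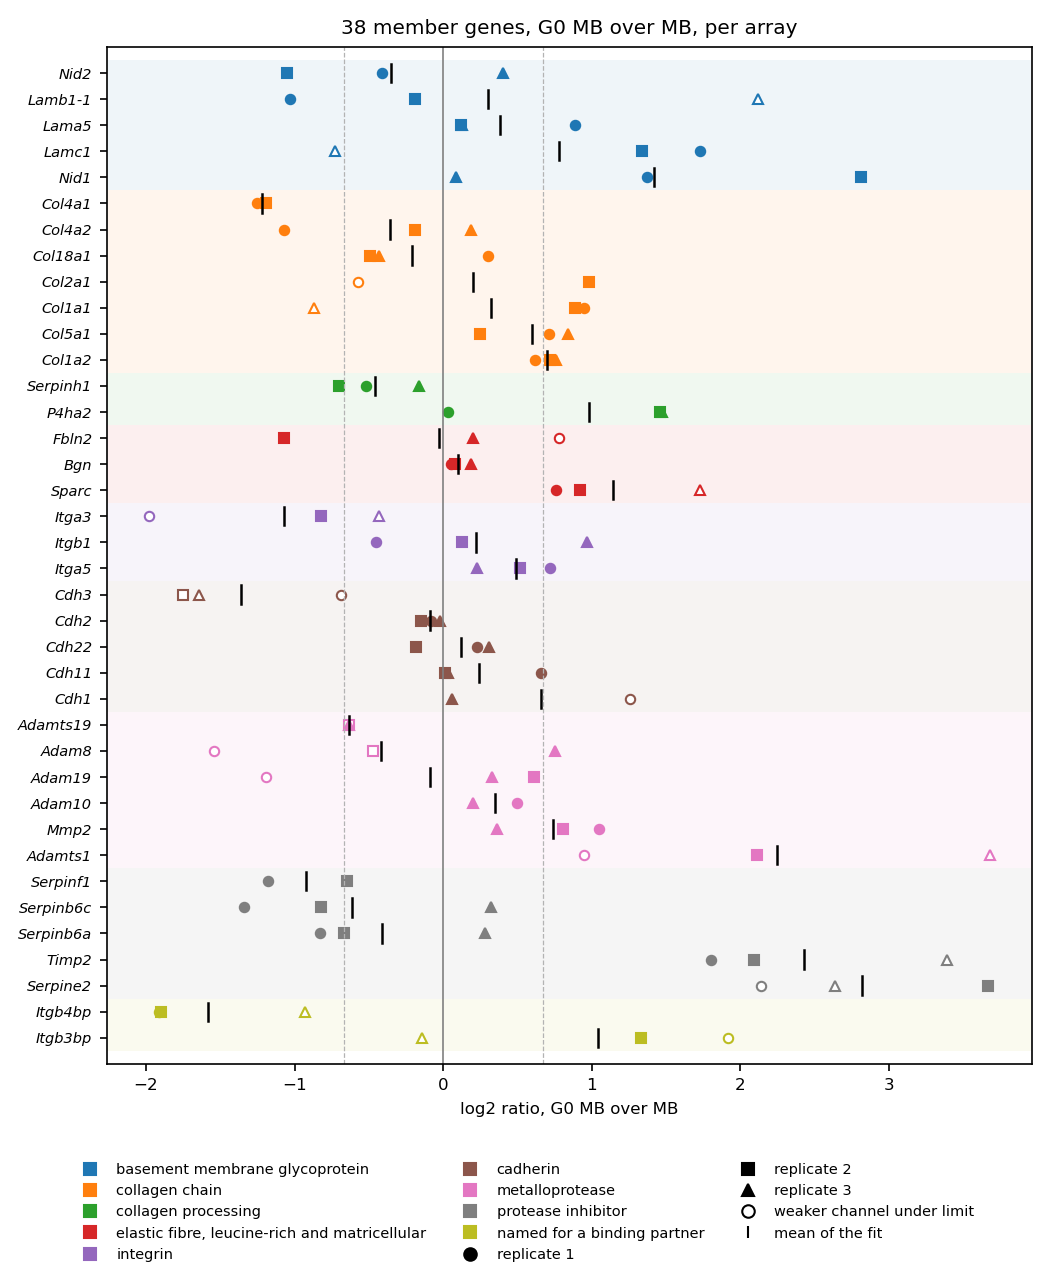
Log2 ratio of G0 MB over MB for each member tested (one gene a line, grouped by role), with a point for each array and the limma mean. Dashed lines mark 1.6-fold and open symbols a weaker channel under its limit; Serpine2 and Timp2 have the highest means, 2.82 and 2.43, and Itgb4bp and Cdh3 lie to the left of 0 on all 3 arrays.

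Serpine2 encodes protease nexin-1, a secreted inhibitor of thrombin and urokinase. Its intensities in G0 MB and MB were 18330 and 4148 on replicate 1, 103016 and 8070 on replicate 2, and 16373 and 2634 on replicate 3. G0 MB was the brighter channel each time, and the MB signal was under its detection limit on replicates 1 and 3. The log2 ratios were 2.14, 3.67 and 2.64, with a mean of 2.82 (SE 0.40, n = 3 arrays, 7.05-fold), and the limma adjusted p was 0.0475 under the labelled and 0.0211 under the title direction.

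Timp2 encodes an inhibitor of matrix metalloproteases that also takes part in the activation of pro-Mmp2 at the cell surface. Its G0 MB and MB intensities were 180544 and 51710 on replicate 1, 172513 and 40402 on replicate 2, and 10330 and 984 on replicate 3. Replicates 1 and 2 measured a bright spot in both channels, whereas on replicate 3 the spot was dim and MB was under its limit. The log2 ratios of 1.80, 2.09 and 3.39 gave a mean of 2.43 (SE 0.40, 5.39-fold) with an adjusted p of 0.0448 under the labelled and 0.0169 under the title direction. Without replicate 3, which stood apart from replicates 1 and 2, the mean was 1.95 with an adjusted p of 0.026, and Serpine2 stood at 2.91 with 0.0311. Without replicate 1 neither gene was called (Timp2 2.74, adjusted p = 0.166; Serpine2 3.16, 0.176), and without replicate 2 neither was (Timp2 2.60, 0.211; Serpine2 2.39, 0.236). With array medians set to 0, both were called, at 2.59 and 2.98.

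The promoter windows of Timp2 and Serpine2, the members called under the title direction, and of Nid1, whose second clone was, are shown so that the letters at their starts can be compared. Each is 300 bases around the gene's start, most of them upstream, from RefSeq, build GRCm38.p6, printed 5′ to 3′ on the gene's strand with the GC boxes (GGGCGG, read on the printed strand) in capitals. They lie at chr11:118355362-118355661 (minus strand, Timp2), chr1:79858616-79858915 (minus strand, Serpine2) and chr13:13437352-13437651 (plus strand, Nid1).
Timp2: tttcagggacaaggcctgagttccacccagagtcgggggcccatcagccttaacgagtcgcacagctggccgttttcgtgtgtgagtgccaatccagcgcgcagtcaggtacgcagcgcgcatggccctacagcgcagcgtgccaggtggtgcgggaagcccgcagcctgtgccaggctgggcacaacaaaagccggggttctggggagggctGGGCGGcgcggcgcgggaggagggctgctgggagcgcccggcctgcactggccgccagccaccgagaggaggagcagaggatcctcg
Serpine2: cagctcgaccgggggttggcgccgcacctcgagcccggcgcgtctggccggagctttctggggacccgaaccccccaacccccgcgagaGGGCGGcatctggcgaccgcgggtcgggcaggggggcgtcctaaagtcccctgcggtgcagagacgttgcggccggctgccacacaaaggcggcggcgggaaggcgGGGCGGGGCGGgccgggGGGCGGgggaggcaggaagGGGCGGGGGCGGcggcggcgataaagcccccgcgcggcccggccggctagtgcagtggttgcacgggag
Nid1: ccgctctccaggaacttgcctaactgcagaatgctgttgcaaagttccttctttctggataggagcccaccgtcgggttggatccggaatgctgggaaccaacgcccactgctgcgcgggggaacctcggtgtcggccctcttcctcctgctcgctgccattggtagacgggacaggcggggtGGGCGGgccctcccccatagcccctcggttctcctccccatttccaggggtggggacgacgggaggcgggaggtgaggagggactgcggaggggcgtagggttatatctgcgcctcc
Searched on both strands with overlaps counted, the GC box matched 6 times in the Serpine2 window and 1 time each in those of Timp2 and Nid1, while 35.7% of all 32851 RefSeq windows of this length hold at least 1 match. CCAAT matched 1 time in Timp2 and in Nid1 and not in Serpine2 (37.4% of all windows), and TATAAA in none of the 3 (13.6%). The GC content was 68.7%, 77.7% and 64.7% against a median of 52.7% over all windows. Of the 81 members, 55 had such a window. A match describes the letters only.

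Among the basement membrane glycoproteins, Nid1, the nidogen that links laminin to type IV collagen, gave 27587 in G0 MB and 10684 in MB on replicate 1, 107887 and 15430 on replicate 2, and 9622 and 9012 on replicate 3. The first 2 arrays set G0 MB well apart from MB and replicate 3 hardly did. The log2 ratios were 1.37, 2.81 and 0.09 (mean 1.42, SE 0.71, adjusted p = 0.264). A second, dimmer Nid1 clone read 1.34, 3.33 and 2.93 (mean 2.54, SE 0.43), with an adjusted p of 0.055 under the labelled and 0.0251 under the title direction, so the clones differed most on replicate 3. Lama5, a laminin alpha chain, stood at 0.89, 0.12 and 0.13 (mean 0.38, SE 0.32, adjusted p = 0.475), which is within the spread of its arrays. By their brightest clones, the other laminin chains tested did not keep a side. Lamc1, the gamma chain of most laminins, read 1.73, 1.34 and -0.73, and Lamb1-1, a beta chain, read -1.03, -0.19 and 2.12. Both were picked out after their values were seen, since replicate 3 stood opposite to the others in each. On replicate 3 the weaker channel of each was under its limit. A second Lamc1 clone read 0.37 and 1.75 on replicates 1 and 2 and had no value on replicate 3.

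Collagen chains ranged from a mean of -1.22 to 0.70. Of 7 tested, 1 was past 1.6-fold higher and 1 lower. Col1a2, a chain of type I collagen, read 0.62, 0.72 and 0.76 (mean 0.70, SE 0.46, adjusted p = 0.377), close together on its arrays, and Col5a1, a chain of the fibril-forming type V collagen, read 0.71, 0.25 and 0.84 (mean 0.60, SE 0.64, adjusted p = 0.576). The model's SE exceeds the spread of those arrays because it is pooled with the other comparisons. Col4a1, a chain of the basement membrane collagen, had values on replicates 1 and 2 only, -1.25 and -1.19 (mean -1.22, SE 1.40, adjusted p = 0.607), and its other clone had a mean of 0.00 (0.18, 0.43 and -0.62), so the clones did not give the same picture. The enzymes and chaperone that act on new collagen split. P4ha2, a catalytic subunit of prolyl 4-hydroxylase, read 0.03, 1.46 and 1.47 (mean 0.98, SE 0.43, adjusted p = 0.222), while Serpinh1, the collagen chaperone Hsp47, read -0.52, -0.70 and -0.16 (mean -0.46, SE 0.42, adjusted p = 0.519).

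Sparc, a collagen-binding matricellular protein, gave 156800 in G0 MB and 92901 in MB on replicate 1, 316628 and 167050 on replicate 2, and 5762 and 1732 on replicate 3. G0 MB was higher on each, by a log2 ratio of 0.76, 0.92 and 1.73 (mean 1.14, SE 0.38, adjusted p = 0.148). On replicate 3 MB was under its limit of 2971, so the size of 1.73 rests on a signal under the limit. A second Sparc clone had a mean of 1.28 from 1.97, 0.81 and 1.07. Bgn, the small leucine-rich proteoglycan biglycan, stayed near 0 on all arrays, at 0.05, 0.08 and 0.19 (mean 0.10, SE 0.32, adjusted p = 0.862).

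Of the integrins only 3 could be tested. Itga3, the alpha chain of a laminin receptor, read -1.98, -0.82 and -0.43, with G0 MB under its limit on replicates 1 and 3 (mean -1.07, SE 0.44, adjusted p = 0.201), and Itga5, the alpha chain of the fibronectin receptor, read 0.72, 0.52 and 0.23 (mean 0.49, SE 0.30, adjusted p = 0.355). Itga3 and Itga5 thus lay on opposite sides of 0 on all 3 arrays, without either passing the test and with the difference between them not tested. Itgb1, the beta chain that pairs with both, stood at 0.22. Of the alpha chains with too few arrays to test, Itga6 read -2.80 and -1.09 and Itgav -2.30 and -0.50 on replicates 1 and 2. The G0 MB signal of each was under its limit on replicate 1. A split between laminin and fibronectin receptors cannot be read from so few chains. Of the members named for binding an integrin, Itgb1bp1 could not be tested here. Itgb4bp, listed today as Eif6, a factor in ribosome assembly and translation, gave 17871 in G0 MB and 66973 in MB on replicate 1, 16889 and 63025 on replicate 2, and 1894 and 3604 on replicate 3. MB was the brighter channel throughout, with log2 ratios of -1.91, -1.90 and -0.93 (mean -1.58, SE 0.36) and an adjusted p of 0.0828 under the labelled and 0.0451 under the title direction. On replicate 3 G0 MB was under its limit of 5554, which was above the MB signal, so that array alone shows no direction. Itgb3bp, a kinetochore protein, read 1.92, 1.33 and -0.14.

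The cadherins ranged from a mean of -1.36 to 0.66. Cdh3, P-cadherin, was above the limit only on the G0 MB over MB arrays and there only in the MB channel, with log2 ratios of -0.69, -1.75 and -1.64 (mean -1.36, SE 0.39, adjusted p = 0.144). With the detection limit in place of the G0 MB signal, the mean over the arrays put it 1.14-fold lower in G0 MB. Only replicate 2 gave that direction, with 11416 in MB against a limit of 4580. On replicates 1 and 3 the limits of 6877 and 5554 were above the MB signals of 6466 and 3529. This bound was formed from the higher of the weak spot and its channel's detection limit on each array, averaged over the arrays. Cdh2, N-cadherin, a cadherin of myoblasts, stood at -0.08, -0.15 and -0.02 (mean -0.09, SE 0.27, adjusted p = 0.864), and Cdh11 at 0.66, 0.01 and 0.03 (mean 0.24, SE 0.29, adjusted p = 0.634). Cdh2 had the steadiest arrays of the named cadherins.

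The metalloproteases were led by Adamts1, which cleaves large proteoglycans such as versican. It gave 7213 in G0 MB and 3731 in MB on replicate 1, 9134 and 2110 on replicate 2, and 10636 and 830 on replicate 3. G0 MB was higher on all 3, by 0.95, 2.11 and 3.68, with MB under its limit at every spot on replicates 1 and 3 and in the mean of the spots on replicate 2 (mean 2.25, SE 0.53), and the adjusted p was 0.104 under the labelled and 0.0639 under the title direction. Mmp2, the gelatinase that acts on denatured collagen and type IV collagen, was bright in both samples and read 1.05, 0.81 and 0.36 (mean 0.74, SE 0.28, adjusted p = 0.187). Of 6 metalloproteases tested, these were the 2 past 1.6-fold.

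**Figure D2:**
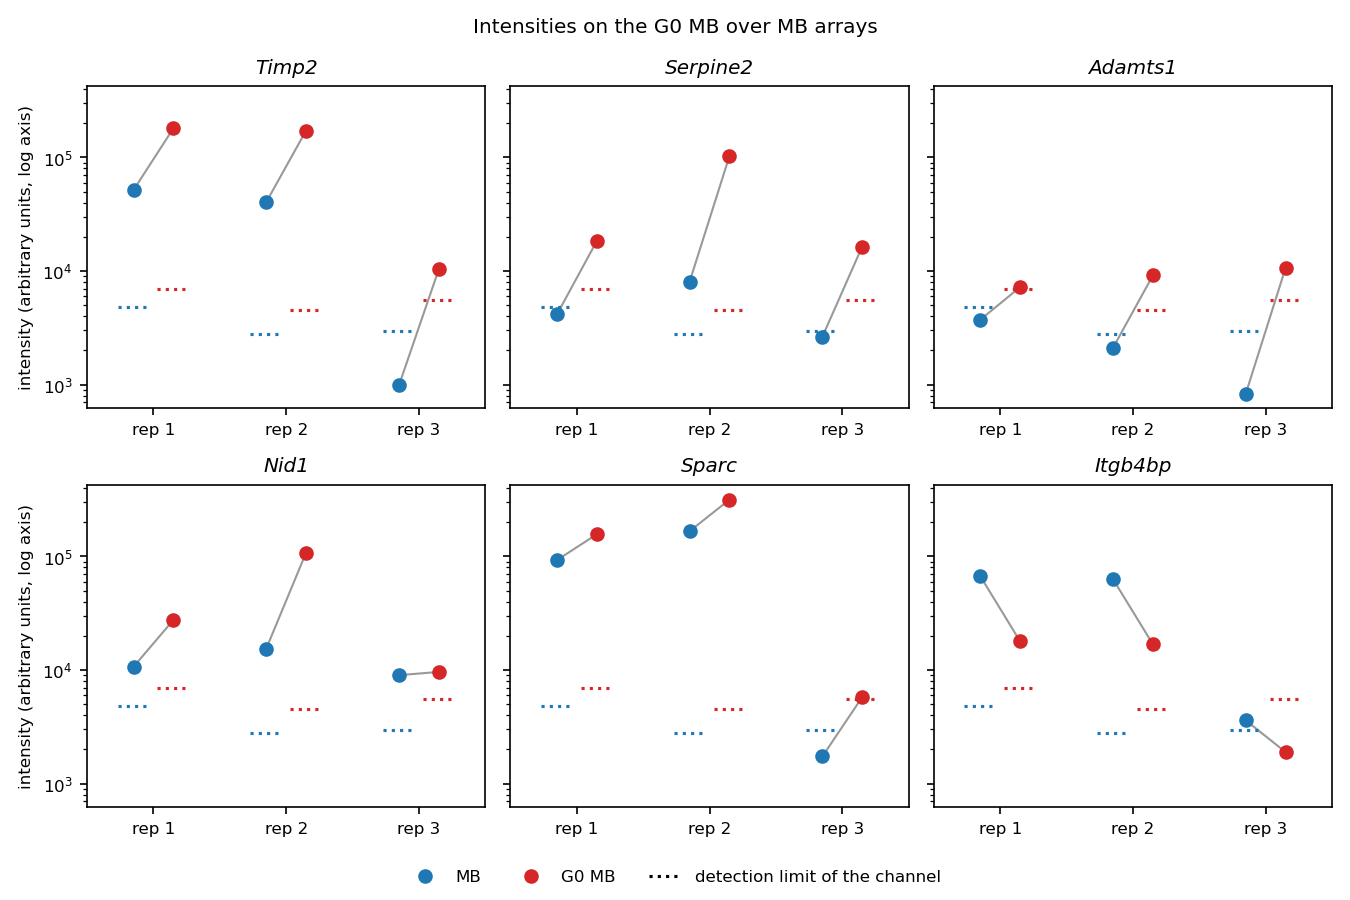
Deposited intensity (arbitrary units, log10 axis, dotted lines at the channel's detection limit) of 6 named members in the G0 MB and MB channels of each of the 3 arrays, with a line joining the channels of an array. Serpine2 and Timp2 slope the same way on all 3 arrays, and replicate 3 is the dimmest array for Timp2, Sparc and Itgb4bp.

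Genes of the matrix and of adhesion outside the set were read from lists compiled with earlier results of these data known, so their direction is no independent evidence. Of 56 other matrix genes, 32 were spotted and 24 tested in G0 MB over MB, with a median of 0.74, 13 past 1.6-fold higher and 2 lower. Spp1, the secreted integrin ligand osteopontin, rose to 2.98 (adjusted p = 0.0116), and Emilin1, an elastic fibre glycoprotein, to 2.95 (adjusted p = 0.0235), at least 2.84-fold; the title direction called 6 of the 24, all higher, with Fn1, fibronectin, at 3.15. Of 40 focal adhesion and surface receptor genes, 20 were tested, with a median of 0.00, no call under the labelled direction and 1 under the title direction, Sdc2, a heparan sulphate proteoglycan of the cell surface, at 2.41. Of 18 catenin and junction genes 4 were tested, with a median of 0.50 and 1 call under the title direction, the gap junction protein Gja1 at 2.45. Proliferation genes, a check of the labels, were mostly lower: of 12 tested, 9 were past 1.6-fold lower in G0 MB, with a median of -2.33, none called under the labelled direction and 3 under the title direction, among them Ccna2, the S and G2 phase cyclin, at -3.24.

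In MT over MB the type IV collagen chains had the largest mean ratios of the members under the title direction, whereas under the labelled dyes their sign turned between the arrays and the largest mean was that of Col5a1, 1.16. Of 34 members tested, limma called none in either direction, against 0% of all 3065 genes under the labelled and 0.457% under the title direction. At an unadjusted p under 0.05 there were 0 members under the labelled direction, and 0 higher and 5 lower under the title direction. Past 1.6-fold, the labelled direction had 4 members higher (11.8%, against 7.34% of all genes) and 2 lower (5.88%, against 4.05%). The title direction had 0 higher (against 10.5% of all genes) and 12 lower in MT (35.3%, against 14.6%), with a median of -0.28 against -0.02 over all genes. The members' median under the labelled direction was 0.12, and that of all genes was 0.11.

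Col4a1 gave 13490 in the channel labelled MT and 586 in that labelled MB on replicate 1, and 2813 and 14861 on replicate 2. The 586 was under its channel's limit of 4813, so the size of the replicate 1 ratio and of the means below rests on a signal under the limit. The bright channel changed places between the arrays, with log2 ratios of 4.52 and -2.40. The mean was 1.06 (SE 1.40, adjusted p = 1) under the labelled direction and -3.46 (SE 0.69, adjusted p = 0.0772) under the title direction. Its partner Col4a2 gave 18021 and 3299 on replicate 1 and 1761 and 6617 on replicate 2, which is the same exchange. The ratios were 2.45 and -1.91, with a mean of 0.27 under the labelled direction and -2.18 (SE 0.40, adjusted p = 0.0505) under the title direction, where MT would be at least 3.25-fold lower. Leaving out G0 MB over MB replicate 3 brought Col4a2 past the test under the title direction, and leaving out either G0 MB over MT array did so for Col4a1. A second Col4a1 clone did not exchange sides, at 1.81 and 3.12, so the clones of this gene disagree on replicate 2. Both chains were picked out after their values were seen, being outside the 6 members with the smallest p under the labelled direction.

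Col4a1 and Col4a2 face away from each other on chromosome 8 and share their start region, and their windows are printed to show the stretch that both hold. The Col4a1 window is chr8:11312777-11313076 on the minus strand and the Col4a2 window chr8:11312555-11312854 on the plus strand (RefSeq, GRCm38.p6, 300 bases each), with the 78 bases that both windows hold in capitals.
Col4a1: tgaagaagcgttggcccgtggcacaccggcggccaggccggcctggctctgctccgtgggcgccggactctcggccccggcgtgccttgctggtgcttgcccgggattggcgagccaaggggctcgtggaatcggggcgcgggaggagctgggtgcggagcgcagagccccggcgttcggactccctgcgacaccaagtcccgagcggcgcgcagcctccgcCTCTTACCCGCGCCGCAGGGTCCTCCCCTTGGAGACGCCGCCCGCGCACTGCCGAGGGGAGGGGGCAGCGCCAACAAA
Col4a2: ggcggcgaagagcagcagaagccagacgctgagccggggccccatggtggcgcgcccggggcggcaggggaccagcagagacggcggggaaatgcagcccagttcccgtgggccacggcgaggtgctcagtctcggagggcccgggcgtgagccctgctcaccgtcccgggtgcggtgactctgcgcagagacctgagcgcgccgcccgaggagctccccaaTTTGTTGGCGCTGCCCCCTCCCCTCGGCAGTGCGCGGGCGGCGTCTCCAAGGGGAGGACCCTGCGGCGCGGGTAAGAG
The shared bases are the same piece of DNA read from opposite strands. The GC box matched 1 time in the Col4a1 and 3 times in the Col4a2 window, CCAAT 1 time in each and TATAAA in neither, and the GC content was 74% and 73.7%.

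The 6 members with the smallest p under the labelled direction had the following arrays. Col5a1 read 2.96 and -0.65 (labelled mean 1.16, title mean -1.81), Col1a2 read 1.51 and 0.02 (0.77 and -0.74), and Itgb4bp read 0.91 and -0.02 (0.45 and -0.46). For Col5a1 and Itgb4bp the channel labelled MB was under its limit on replicate 1. Serpinh1 read 0.38 and -1.36 (-0.49 and -0.87). In 3 of these 4 the arrays had opposite signs, and for Col1a2 replicate 2 lay at 0. Col1a1, another chain of type I collagen, and Adamts19 kept a side under the labelled dyes, at -1.06 and -0.52 for Col1a1 (-0.79 and 0.27) and 0.47 and 0.26 for Adamts19 (0.37 and -0.10). Averaged over all clones, Adamts19 turned to -0.09 and Col1a2 to -0.26. The adjusted p of each of these 6 under the labelled direction was 1.

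By role, collagen chains had a median of 0.27 under the labelled and -1.62 under the title direction, with 5 of 7 past 1.6-fold lower in the latter. Integrins had 0.04 and -0.71, with 3 of 4 past 1.6-fold lower under the title direction. Cadherins and metalloproteases stayed near 0 under both, at 0.05 and 0.10 and at 0.18 and -0.07. Mmp2 and Cdh2 were bright on both arrays and read 0.04 and -0.03, and -0.01 and 0.20. Other matrix genes had a median of -0.12 under the labelled and -0.13 under the title direction over 17 tested, and focal adhesion genes -0.01 and -0.22 over 20.

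**Figure D3:**
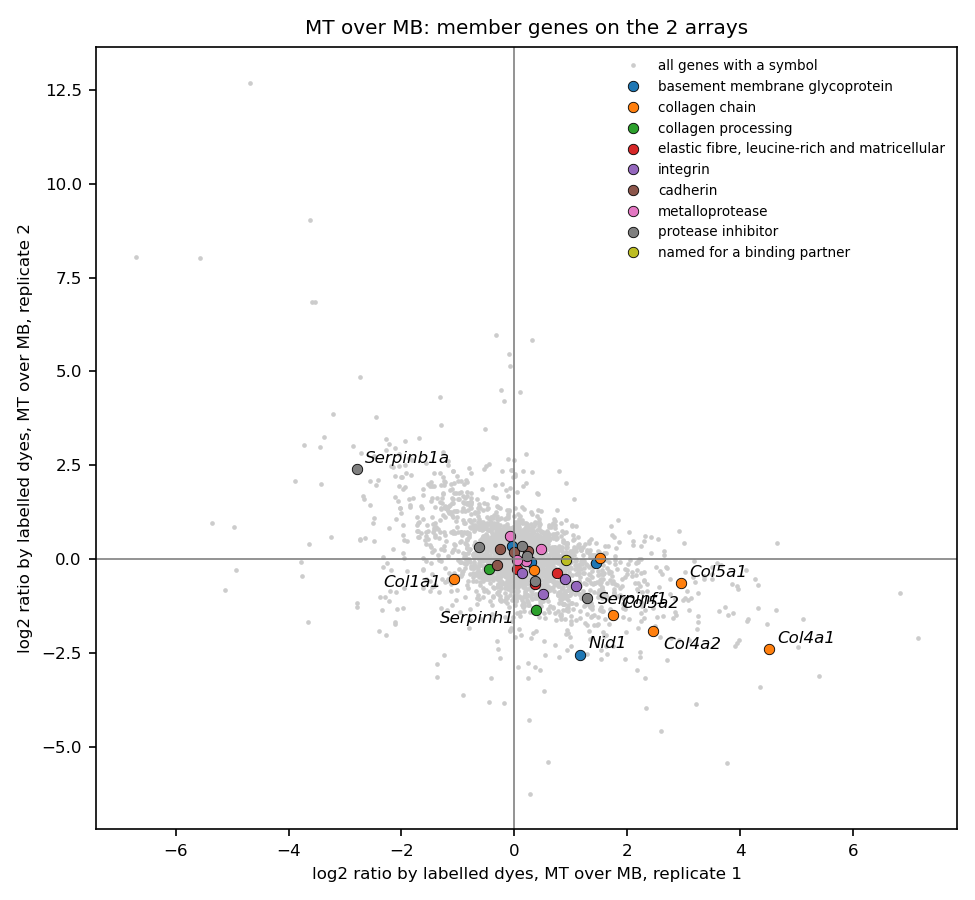
Log2 ratio of MT over MB by the labelled dyes, replicate 1 on the horizontal and replicate 2 on the vertical axis, with all genes in grey and members coloured by role. Col4a1, Col4a2, Col5a2 and Nid1 lie in the lower right, positive on replicate 1 and negative on replicate 2, and the grey cloud runs the same way.

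Muscle genes bear on the direction, and 2 of 21 listed were spotted. Mylpf, a fast skeletal myosin light chain, had a mean of 4.01 under the labelled and 8.69 under the title direction (adjusted p = 0.0519) in MT over MB. Tpm2, a tropomyosin, had -0.71 and 2.71, and was called under the title direction (adjusted p = 0.0279). Against MT, G0 MB stood at 3.61 (Mylpf) and 2.00 (Tpm2) under the labelled direction, which would put both higher in G0 MB than in myotubes, and at the opposite sign under the title direction. Both genes were thus higher in MT than in MB and in G0 MB under the title direction, and under the labelled direction lower in MT than in G0 MB. For G0 MB over MB neither was past 1.6-fold. Of the proliferation genes, 8 were tested in MT over MB and none was called. Their median was -0.06 under the labelled direction, with 2 past 1.6-fold higher and 1 lower in MT. Under the title direction it was -0.87, with 1 higher and 5 lower. Of 9 fibroblast genes 4 were spotted and at most 1 was tested in any comparison, so the identity of G0 FB could not be checked with these arrays. The part of these markers in the members' ratios was not tested.

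In G0 MB over MT, Nid1 and Timp2, both among the higher genes in G0 MB over MB, had the largest ratios held by both arrays. The labelled direction puts them lower in G0 MB than in MT, and the title direction higher. Of 35 members tested, none was called under the labelled direction (0.0682% of all 2934 genes) and 1, Nid1, under the title direction (0.443%). By limma at an unadjusted p under 0.05, 2 members were higher and 5 lower under the labelled direction, and 7 higher and 2 lower under the title direction. Past 1.6-fold, 5 members were higher (14.3%, against 14.2% of all genes) and 11 lower (31.4%, against 12.6%) under the labelled direction, with these sides exchanged under the title direction. The median was -0.38 (0.38 under the title direction) against -0.09 over all genes. The G0 MB condition is shared with the first comparison, and MT with the second, so the values can be set side by side for genes named above. Timp2 stood at 2.43 in G0 MB over MB and near 0 in MT over MB (-0.11 labelled, -0.48 title), and here at -2.33 or 2.33. Spp1 stood at 2.98 and near 0 (-0.17 labelled, 0.14 title), and here at -3.0 or 3.0. Sdc2 stood at 2.41 and near 0.44 or 0.18, and here at -2.62 or 2.62. For these 3 genes, picked out after their values were seen, the ratio here was close to the difference of the other comparisons under the title direction and opposite to it in sign under the labelled direction. Col1a1 did not show this, at 0.32 in G0 MB over MB, -0.79 or 0.27 in MT over MB, and here 1.71 or -1.71.

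Nid1 gave 2391 in the channel labelled G0 MB and 54629 in that labelled MT on replicate 1, and 262 and 3350 on replicate 2. The channel labelled G0 MB was under its limit on both arrays and the other well above it. The log2 ratios were -4.51 and -3.67 (mean -4.09, SE 0.86), a difference of at least 6.06-fold, with an adjusted p of 0.196 under the labelled direction and, at 4.09, of 0.0358 under the title direction. The second clone read -3.24 and -3.20 (mean -3.22, SE 0.52), with adjusted p of 0.092 and 0.0486. Under the title direction the call of Nid1 was lost without G0 MB over MT replicate 1, without G0 MB over MB replicate 1 or 2, or without either G0 MB over G0 FB array, and without G0 MB over MB replicate 3 there were 2 calls, Nid1 and Timp2.

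Timp2 gave 8511 and 51085 on replicate 1 and 9816 and 41622 on replicate 2, all above the limits. The ratios of -2.59 and -2.08 (mean -2.33, SE 0.48, 5.04-fold) had an adjusted p of 0.196 under the labelled and 0.0658 under the title direction. P4ha2 read -2.79 and -1.08 (mean -1.94, SE 0.53, adjusted p = 0.334 and 0.193). Adamts4, an aggrecan-cleaving protease, measured 1314 and 3062 on replicate 1 and 112 and 739 on replicate 2 (adjusted p = 0.41 and 0.221). Its channel labelled G0 MB was under the limit both times and the limits were too high to bound a fold, so none is given. Lamb1-1 read -2.38 and -1.64 (mean -2.01, SE 0.71, adjusted p = 0.485 and 0.301), at least 2.32-fold apart. P4ha2 and Lamb1-1 lay on the side of Nid1 and Timp2 under each alternative that kept the labelled direction. Serpinb6c, an intracellular serpin whose clone need not tell it from its close paralogs, lay on the other side at 1.22 and 1.39 (mean 1.31, SE 0.49, adjusted p = 0.52 and 0.302). All of these signs turn under the title direction.

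Taken by role, 3 of the 5 basement membrane glycoproteins tested were past 1.6-fold lower under the labelled direction, with a median of -1.04, and none was higher. Collagen chains had a median of -0.63, with Col1a1 apart at 0.84 and 2.59. The cadherins lay between -0.50 and 0.02, and Cdh2 read -0.10 and -0.26. Adam15 had the highest mean, 2.09, from arrays that did not share a side (4.42 and -0.24). Mmp2 read -0.64 and -0.62. Other matrix genes had a median of -0.48 over 19 tested, with no call under the labelled direction and 1, Spp1 at 3.00, under the title direction, and focal adhesion genes -0.14 over 17.

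Between G0 MB and G0 FB the collagen chains spread widest of the roles, from a mean of -1.59 to 2.72, and no member was called. Of 40 tested, limma called none under the labelled direction, as against 0.0286% of all 3494 genes, and none under the title direction, again against 0.0286%. At an unadjusted p under 0.05, 1 member was higher and 2 lower under the labelled direction, and 4 and 4 under the title direction. Past 1.6-fold, 10 were higher (25%, against 9.96% of all genes) and 8 lower (20%, against 7.33%) under the labelled direction, and the sides exchange under the title direction. The median was -0.13 (0.13) against -0.05 over all genes, so the members spread to both sides of it.

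Col1a1 gave 66664 in the channel labelled G0 MB and 5268 in that labelled G0 FB on replicate 1, and 98896 and 28882 on replicate 2. The channel labelled G0 MB was the brighter on both, with log2 ratios of 3.66 and 1.78 (mean 2.72, SE 0.66) and an adjusted p of 0.642 under the labelled and 0.423 under the title direction, which would make G0 FB the higher. The chains of type IV collagen, picked out after their values were seen, lay on the same side. Col4a1 read 2.16 and 2.45 (mean 2.31, SE 1.40), its second clone 2.68 and 2.20, and Col4a2 read 1.97 and 1.61 (mean 1.79, SE 0.85, adjusted p = 0.311 under the title direction). Here, unlike in MT over MB, both Col4a1 clones and Col4a2 kept 1 side on both arrays. Col5a1, at -1.88 and -1.30, was on the other side, and Col2a1, the cartilage collagen, read 3.38 and 0.39 (mean 1.89, SE 0.82, adjusted p = 1 and 0.95).

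Of the members with the smallest p, Sparc, Serpinf1 and Serpinh1 lay opposite to Col1a1. Sparc read -1.0 and -1.23 (mean -1.12, SE 0.46, adjusted p = 1 and 0.808), Serpinf1, the secreted factor PEDF, -1.57 and -1.12 (mean -1.34, SE 0.56, 1 and 0.534), and Serpinh1 -0.68 and -1.50 (mean -1.09, SE 0.51, 1 and 0.849). Serpinh1 binds procollagen, and it did not lie on the side of Col1a1. Itgb5, a beta chain that pairs with alpha v, read 0.90 and 1.59 (mean 1.25, SE 0.53, 1 and 0.808), and Itga3 stood at -1.03. Other secreted members lay on the side of Col1a1, with Timp2 at 1.00 and 0.39, Nid1 at 0.97 and 0.71, and Bgn at 0.65 and 0.87. Other matrix genes had a median of -0.35 over 21 tested and focal adhesion genes -0.44 over 22, with no call in either direction.

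**Figure D4:**
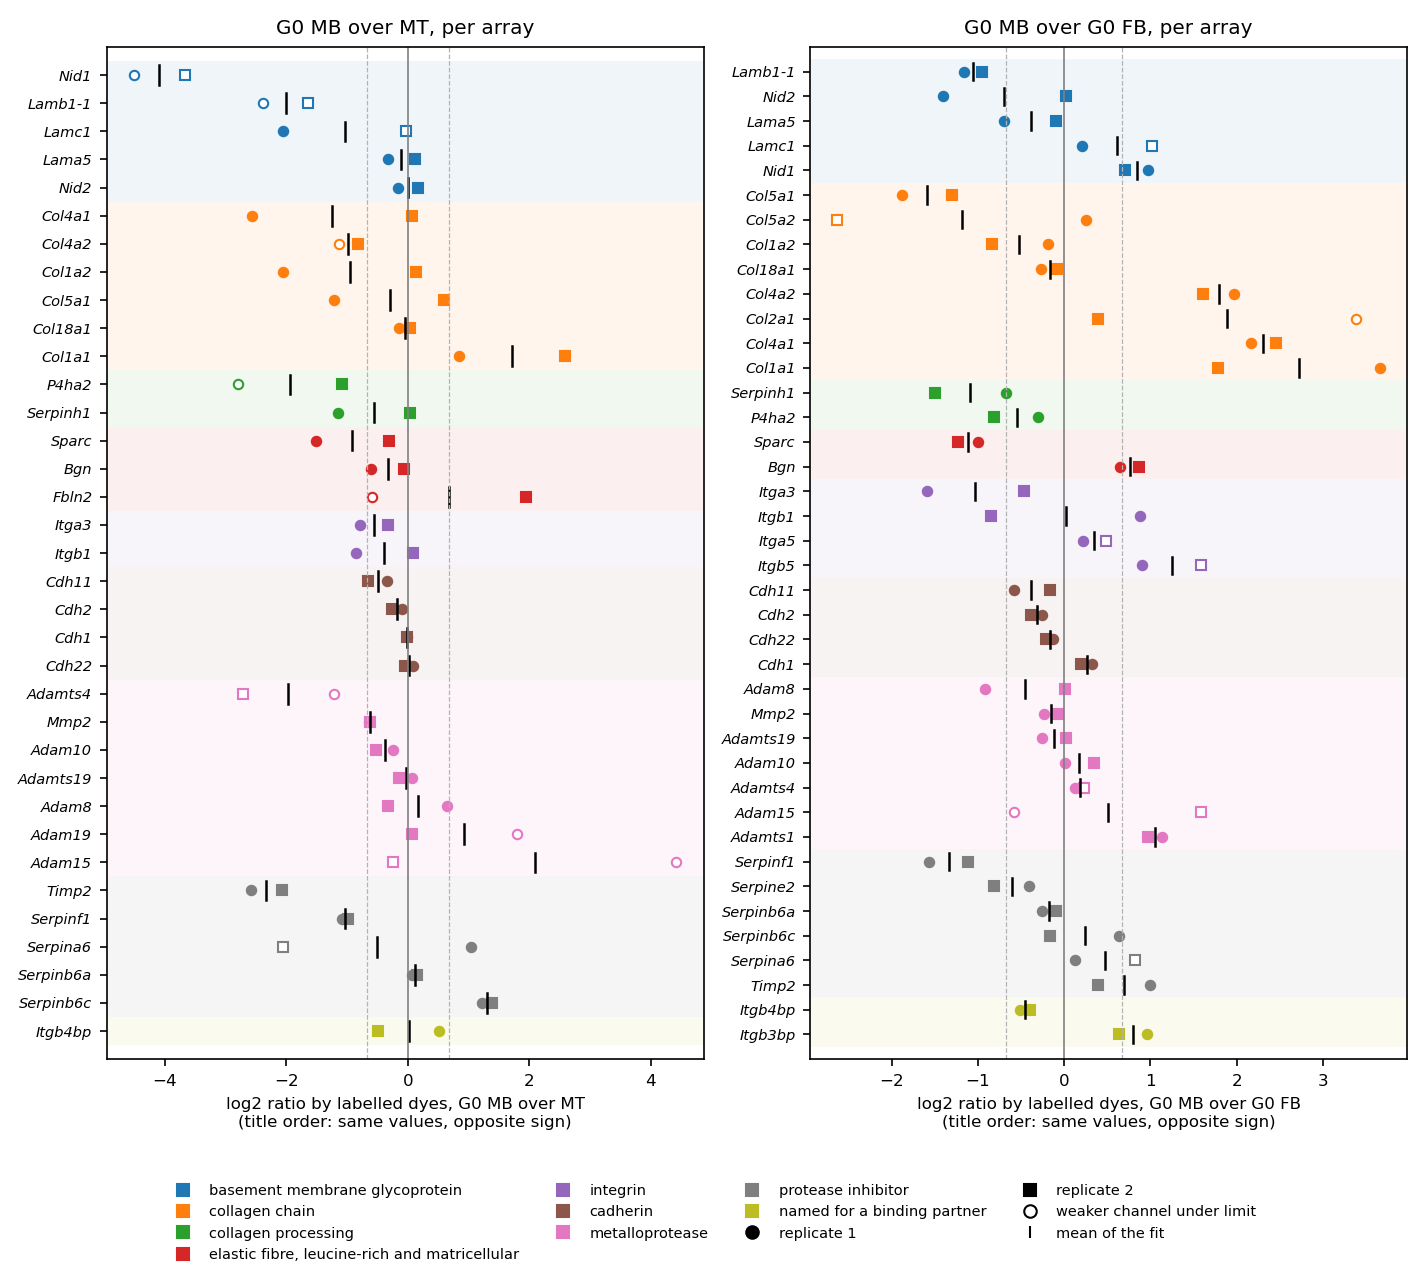
Log2 ratio by the labelled dyes of members tested in G0 MB over MT (first panel) and over G0 FB (second panel), with a point for each of the 2 arrays, a bar at the limma mean and open symbols where the weaker channel was under its limit. All signs turn under the title direction; Nid1 at -4.51 and -3.67 has the mean farthest from 0 against MT, and Col1a1 at 3.66 and 1.78 the highest mean against G0 FB.

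Where a gene had more than 1 clone, the clones gave a second reading from the same RNA, which is no second sample. Of the 81 members 21 had several clones. The Nid1 clones had the same sign in the 3 comparisons where both were tested, at 1.42 and 2.54, at -4.09 and -3.22, and at 0.84 and 0.96. The Col4a1 clones had like means for G0 MB over MT (-1.25 and -1.11) and against G0 FB (2.31 and 2.44), and unlike ones for G0 MB over MB (-1.22 and 0.00) and MT over MB (1.06 and 2.46). The Col1a2 clones lay on opposite sides in MT over MB (0.77 and -1.29). The Col18a1 clones, for the collagen that yields endostatin, were both below 0 in G0 MB over MB (-0.21 and -0.87), the second past 1.6-fold and on 2 arrays only.

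**Figure D5:**
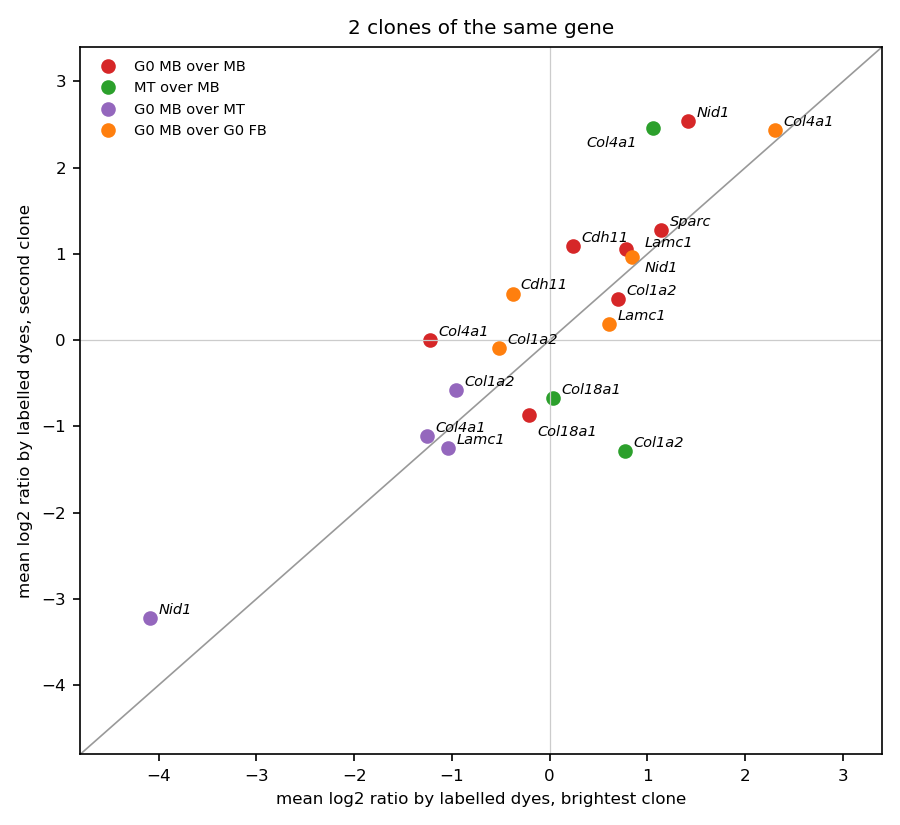
Mean log2 ratio by the labelled dyes of the brightest clone (horizontal axis) against the other clone (vertical axis) of members with several clones, by comparison, with the line of equality. Nid1 lies low on the left against MT, at -4.09 and -3.22, and Col4a1 leaves the line in MT over MB at 1.06 and 2.46.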

How the data were processed

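Each array was a deposited table of Cy3 and Cy5 spot intensities, from which the authors had subtracted background and which they had normalized by LOWESS; the image and normalization software is ArrayVision and MIDAS per the study's methods. Loess was therefore not repeated except as an alternative. The authors also deposited log2 ratios, used only as an alternative: the columns named for the MT over MB arrays held each other's values, and the test over reference order was found by setting each column against the intensities. Spots at 0 in both channels or under both detection limits were left out, the duplicate spots of a clone were averaged as log2 ratios, and limma 3.58.1 (R 4.3.3; lmFit and eBayes) was fitted to all 9 arrays with a mean for each comparison, keeping clones with at least 2 arrays of a comparison and 2 residual degrees of freedom. P-values were adjusted by Benjamini-Hochberg over all clones tested in a comparison, further clones of a gene and clones without a symbol included (6903 clones in G0 MB over MB). Each gene was then read by its brightest clone. A call needed an adjusted p under 0.04 and a log2 ratio past 0.67. A gene whose weaker channel was under the limit at every spot of every array has only a bound for its fold. The bound is a mean over the arrays, and none is given where it came out under 1. The procedure was tested on simulated data. The arrays' number limits the precision. The study's methods describe biological replication within each sample pair, but nothing in the labels ties an array to a culture of its own. P-values therefore measure the spread between arrays, which may be technical.

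Members, lists and tests were chosen with earlier results of these data known. Values on every array are given for members called in either direction, for the 3 largest of each role with the same sign on all G0 MB over MB arrays, and for the 6 smallest unadjusted p of each other comparison; other genes were named after their values were seen. Alternatives covered direction, centring, scaling, loess, detection filters, the authors' table, a separate fit, a dye term, the replicate block, the mean over clones and leaving out each array. Tables were read in Python 3.11.15 (pandas 2.3.3, numpy 2.4.6), and figures drawn in matplotlib 3.10.9. Of the 15294 clones on either layout, 4154 have no symbol and were not used for genes.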

Additional observations from a re-analysis of the deposited data

How the results depend on the processing

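For G0 MB over MB the count of called members, 0, became 2 under the title direction, with the other MT over MB array turned instead, with median centring (Serpine2 and Timp2 each time) and with both channels required above the limit (Itgb4bp and Timp2), 3 in a fit of these arrays alone (Adamts1, Serpine2 and Timp2), and 15 at 1.6-fold alone; leaving out arrays gave 0 to 3, with 2 without either MT over MB array (Serpine2 and Timp2) and 3 without G0 MB over MB replicate 3 (Itgb4bp, Serpine2 and Timp2). From the title direction's 2, leaving out arrays gave 0 to 5, with 1 without G0 MB over MB replicate 1, 0 without replicate 2 and 5 without replicate 3. In MT over MB the count was 6 at 1.6-fold alone and, under the title direction, 0 to 1 with arrays left out: 1 without G0 MB over MB replicate 3 (Col4a2) and 1 without either G0 MB over MT array (Col4a1). In G0 MB over MT the count of 0 became 1 under the title direction, where Nid1 turned to 4.09, 1 with the other MT over MB array turned (Nid1), 1 with both channels above the limit (Timp2), 16 at 1.6-fold alone, and 0 to 1 with arrays left out, 1 without either MT over MB array. From the title direction's 1 it went to 0 to 2 with arrays left out. Against G0 FB it was 18 at 1.6-fold alone and 0 under every other alternative run. The cause of these changes was not tested. Replicate numbers were not taken to pair the arrays. The deviations of same-numbered arrays correlated between -0.429 and 0.051. These values cannot settle whether the arrays are paired, since in a comparison of 2 arrays the deviations mirror each other. Under a replicate block, no member was called in any comparison under the labelled direction (0), and under the title direction 2 were in G0 MB over MB (Itgb4bp and Timp2) and 0 in G0 MB over MT. Over the 36 named values, 433 alternatives kept their direction and side of the threshold, 16 moved past it and 1 turned its sign with a call. A further 41, none called, changed sign, 16 of them under the title direction and 17 in the authors' table, which has that direction. The median of the members in G0 MB over MB was 0.37 with median centring, 0.06 on the layout of replicate 3 alone, and 0.04 to 0.35 with arrays left out. Dim spots limit what can be read, since 38 of the 81 genes could not be tested in any comparison.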
